A study of Mus musculus with 4 samples.

Results

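Frizzled receptors and the coreceptors Lrp5 and Lrp6 receive Wnt ligands at the cell surface, and 10 of their genes, Fzd1 to Fzd8, Lrp5 and Lrp6, were followed here through mouse hematopoietic stem cells (HSCs) that carried or had lost the transcriptional repressor Gfi1b. The members were the rows of the count tables whose Ensembl identifiers map to these symbols, and all 10 were found among the 37140 genes listed in every table. The sample titles write Gfi1 where the genotype labels write Gfi1b. RNA-seq was done on 4 libraries of C57Bl6 bone marrow cells, 1 for each genotype in each of 2 sorted populations. The populations were HSCs, gated as Lin- cKit+ Sca1+ CD48- CD150+ cells, and HSCs with low surface CD41 and CD9, called CD41low/CD9low HSCs, a gate that leaves out cells resembling megakaryocyte precursors. The study's results name the first population CD41+/CD9+ HSCs, while its methods give no CD41 or CD9 limit for it. Whether the 2 gates share cells is therefore not known. Gfi1b KO mice were Gfi1b flox/flox and carried a Rosa-Cre transgene, which is active in all tissues once tamoxifen is given. By the study's methods the controls, called WT here, also carried Rosa-Cre and received tamoxifen but had 1 floxed and 1 wild-type Gfi1b allele, whereas the deposited description speaks of flox/flox mice with or without Cre. Marrow of several mice was pooled before sorting, and both populations of a genotype may stem from the same pool. Positions are given on GRCm38 as annotated in GENCODE M21.

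A Wnt ligand brings together a Frizzled, a receptor that crosses the membrane several times and binds the ligand through a cysteine-rich domain, and Lrp5 or Lrp6, members of the LDL receptor family whose tails recruit Axin once phosphorylated. This stabilizes β-catenin in canonical signaling, while Frizzleds also pair with Ror, Ryk or Ptk7 in pathways that do not use β-catenin. In bone marrow, Wnt signals are known to influence the self-renewal and the number of HSCs, and several Frizzleds can stand in for each other.

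Total counts on genes ranged from 12732079 in WT CD41low/CD9low HSCs to 50781007 in WT HSCs. A count of 3 equalled between 0.0591 and 0.236 CPM (the count relative to the library total on genes, in the usual rescaled unit), which is the limit that a count of 0 allows. The tables of the 2 populations list different numbers of genes, 38293 for HSCs and 41214 for CD41low/CD9low HSCs, so that sorting gate, annotation release and depth cannot be told apart between populations. Gfi1b itself had 9256 (WT) and 49910 (KO) counts in HSCs and 611 (WT) and 9741 (KO) in CD41low/CD9low HSCs. These are counts over the whole gene, including exons outside the floxed ones, so the higher KO counts do not check the deletion. All 8 HSC markers examined were detected in every library, but Kit, Ly6a (Sca1) and Slamf1 (CD150) among them encode proteins that the gate selected for. The summed level of 9 megakaryocyte markers was 1680 (WT) and 2394 (KO) CPM in HSCs against 530.9 (WT) and 634.9 (KO) CPM in CD41low/CD9low HSCs. The 9 include Itga2b (CD41) and Cd9, which define the second gate, so part of this difference was set by sorting. In HSCs, 3 of these 9 had a KO/WT ratio above 1.5 and 0 had one under 0.6, where 14.1% of all genes were above and 10.3% under. Among the 9 markers, Itgb3 had 10282 (WT) and 27657 (KO) counts, while Pf4 and Gp9 had ratios of 0.889 and 0.904. Within CD41low/CD9low HSCs, 7 of 8 myeloid markers had a KO/WT ratio under 0.6, and the 8 summed to 1242 CPM in WT against 509.3 CPM in KO. Of 7 erythroid markers, 6 had a ratio under 0.6 as well, with Car1 and Ermap among those at 0 in KO. The other erythroid marker, Epor, went the opposite way, with 49 (WT) and 205 (KO) counts and a ratio of 2.79 (2.03 to 3.89). Of all genes in these cells, 12.0% had a ratio under 0.6 and 13.5% one above 1.5. Stromal markers summed to 91.7 (WT) and 134.8 (KO) CPM in HSCs and to 35.8 (WT) and 29.6 (KO) CPM in CD41low/CD9low HSCs. Most of the HSC sum was Col1a1, with 1621 (WT) and 2488 (KO) counts, and Col1a2, with 2351 (WT) and 2614 (KO). In HSCs, Pdgfrb had 626 (WT) and 436 (KO) counts, Cxcl12 had 56 (WT) and 59 (KO), and Lepr, Col3a1 and Dcn had at most 10. In bulk libraries, fewer cells of a type and less RNA per cell cannot be told apart, and the part these other cell types may have in the receptor values was not tested.

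HSCs of both genotypes expressed 9 of the 10 receptor genes, counting a gene as detected at 10 or more counts in a library, and the same 9 were detected in CD41low/CD9low HSCs. For comparison, 61.9% (WT) and 61.0% (KO) of protein-coding genes were detected in HSCs and 57.1% (WT) and 57.6% (KO) in CD41low/CD9low HSCs. Fzd2, a single-exon gene on chromosome 11, was the exception. It had 4 counts in WT HSCs, 5 in KO HSCs, 4 in WT CD41low/CD9low HSCs and 0 in KO CD41low/CD9low HSCs, and was not carried into any comparison. The count of 0 allows up to 0.157 CPM in that library.

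To set genes side by side, CPM was divided by the length of each gene's merged exons. Averaged over the 4 libraries, the level per kilobase was highest for the coreceptor Lrp6 at 16.2 CPM per kb. Fzd6 followed with 10.4 CPM per kb and Lrp5 with 10.3 CPM per kb, and then Fzd7 with 7.27 CPM per kb. Fzd5 with 3.05, Fzd8 with 2.35 and Fzd3 with 1.31 CPM per kb were intermediate. Fzd1 and Fzd4 were lowest among the detected genes, at 0.977 and 0.663 CPM per kb. Lrp6 stood above 84.0% of protein-coding genes by this measure in WT HSCs, and Fzd1 above 49.5%.

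The order was much the same in each library. Lrp6 came first in all 4, and below Lrp5 and Fzd6 the order was always Fzd7, Fzd5 and Fzd8. Lrp5 and Fzd6 exchanged places, with 7.90 and 7.85 CPM per kb in WT HSCs and 8.78 and 10.8 CPM per kb in KO HSCs. Their 95% counting intervals overlapped in both WT libraries and were apart in both KO libraries. In WT CD41low/CD9low HSCs, Lrp6 at 13.6 CPM per kb was not apart from Lrp5 at 12.8 either. Places 7 to 9 were shared in varying order by Fzd1, Fzd3 and Fzd4. With exon lengths from the smaller GENCODE basic transcript set, the mean level of Lrp6 became 23.6 and that of Lrp5 16.7 CPM per kb, which put Lrp5 above Fzd6 at 11.5 CPM per kb and put Lrp5 first in WT CD41low/CD9low HSCs.

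**Figure D1:**
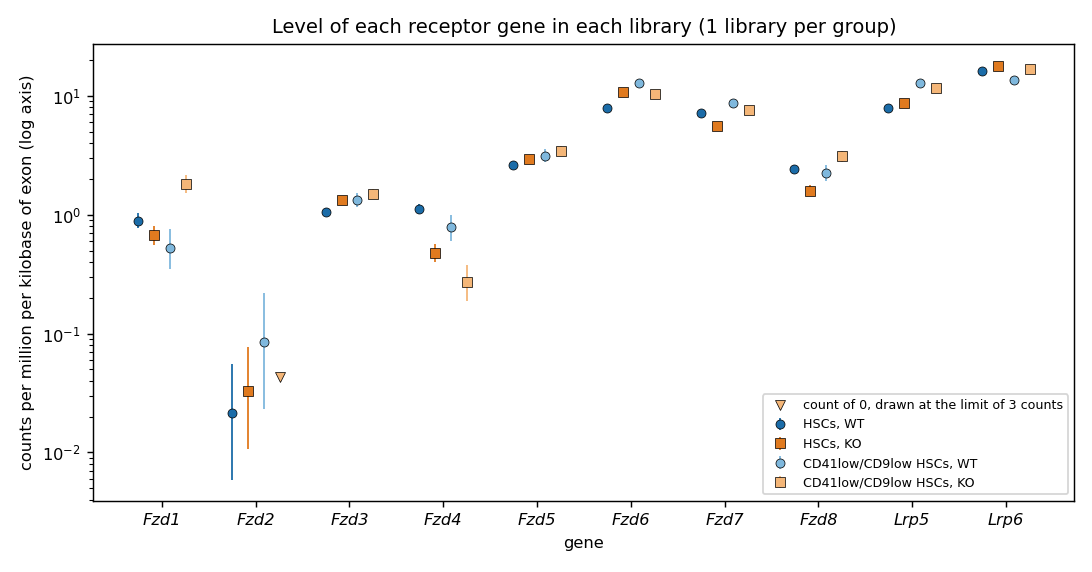
Level of each receptor gene in CPM per kb of merged exon (log axis) in the 4 libraries, with exact 95% Poisson intervals of the count. Lrp6 is highest in each library, Fzd2 lies near the detection limit, and Fzd1 and Fzd4 spread most widely among the 9 detected genes.

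Summed over Fzd1 to Fzd8, the Frizzled level was 23.3 CPM per kb in WT HSCs, 23.4 in KO HSCs, 29.5 in WT CD41low/CD9low HSCs and 28.1 in KO CD41low/CD9low HSCs. The genotypes of a population were thus close in their total. The summed level of Lrp5 and Lrp6 divided by that of the Frizzleds was 1.04 (WT) and 1.14 (KO) in HSCs and 0.893 (WT) and 1.02 (KO) in CD41low/CD9low HSCs.

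The makeup of this total was less even than its size. Fzd6, a Frizzled mostly known for work in planar cell polarity, contributed 33.8% (WT) and 46.1% (KO) of the Frizzled level in HSCs. Among CD41low/CD9low HSCs its share was 43.1% (WT) and 36.7% (KO), so that the order of the genotypes was the opposite. Fzd7, which couples to β-catenin in many stem and progenitor cells, contributed 31.1% (WT) and 23.7% (KO) in HSCs and 29.4% (WT) and 27.1% (KO) in CD41low/CD9low HSCs. Both genes together made up over 60% of the summed level in every library. Fzd4 had 4.83% (WT) and 2.03% (KO) in HSCs and 2.65% (WT) and 0.971% (KO) in CD41low/CD9low HSCs.

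**Figure D2:**
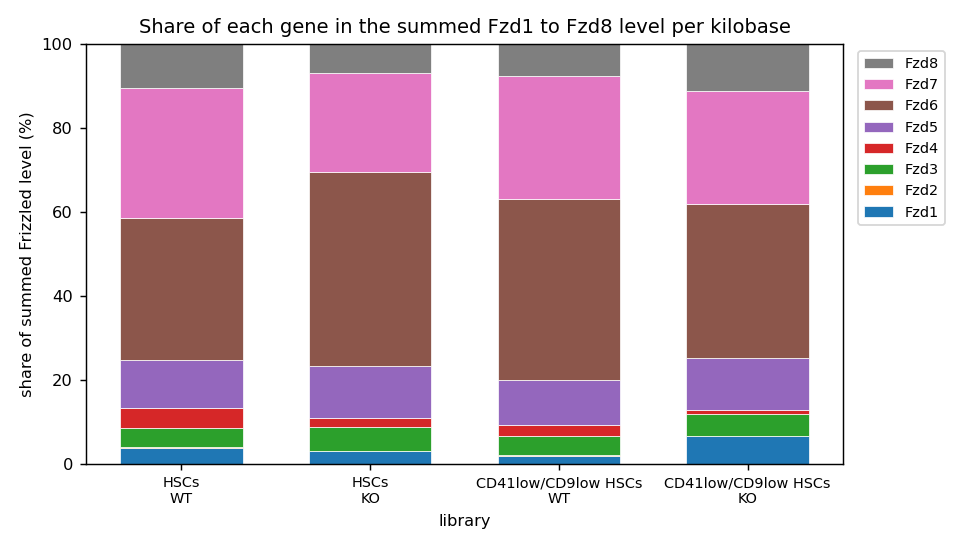
Share of each gene in the summed level of Fzd1 to Fzd8 (percent of the summed CPM per kb), 1 bar per library. Fzd6 and Fzd7 fill most of each bar, from 63.8% to 72.5%, and the Fzd4 segment is smaller in the KO bar of both populations.

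To ask which receptor genes differed with loss of Gfi1b, KO/WT ratios were formed within each population from counts scaled by median-of-ratios factors. With 1 library per genotype no p-value exists within a population, so each ratio is given with its exact 95% counting interval and is called up above 1.5 or down below 0.6, the cutoffs used in the study. In HSCs, 1 of the 9 detected receptor genes was down and none was up, where 10.3% of all 15910 genes with at least 10 counts in 1 library were down and 14.1% up. In CD41low/CD9low HSCs, 1 was down and 1 up, where 12.0% of 14844 genes were down and 13.5% up. The members' counts past the cutoffs were therefore near the background of all genes.

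Fzd4 (ENSMUSG00000049791, chr7:89404355-89413134, plus strand, 2 exons), a receptor for canonical Wnts and for the ligand norrin, was the gene past a cutoff in the same direction in both populations. It had 383 counts in WT HSCs and 133 in KO HSCs, and 67 in WT and 35 in KO CD41low/CD9low HSCs. The KO library was the lower one in each pair despite the greater depth of the KO library among CD41low/CD9low HSCs. The KO/WT ratio was 0.429 (95% interval 0.349 to 0.523) in HSCs against 0.348 (0.225 to 0.532) in CD41low/CD9low HSCs. Of 14144 genes compared in both populations, 2.45% were down in both. Ratios spread more widely at low counts, and 7.70% of genes whose larger count was at least 200 and under 1000 in HSCs and 24.0% of those with at least 50 and under 200 in CD41low/CD9low HSCs were down.

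The single test across all 4 libraries was edgeR's quasi-likelihood test of genotype beside population. It has 1 residual degree of freedom per gene, so its p-values rest largely on variance that edgeR pools over all tested genes. The test measures only the spread among these libraries. The populations serve in it as repeats of the genotype effect, though both may stem from the same pool of mice. A genotype difference that is unlike in the populations enters its residual. By this test Fzd4 had a log2 KO/WT difference of -1.37 ± 0.53 (SE) with a Benjamini-Hochberg adjusted p of 0.370 over 14940 genes, so it did not pass. With other normalizations or no filter the adjusted p by edgeR lay between 0.315 and 0.392, and without population as a term it was 0.9999. None of the 9 tested receptor genes passed, where 0.535% of all genes were higher and 0.308% lower in KO. Only Fzd4 had an unadjusted p under 0.05. The share of all genes at that unadjusted p in this fit was not counted, so this count and the later ones at that p have no background to compare with. DESeq2 with the same covariate gave no adjusted p for Fzd1 and Fzd4 and called 0 of the other 7.

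Fzd1 (ENSMUSG00000044674, chr5:4753839-4758035, minus strand, 1 exon), a receptor able to signal through β-catenin, went in different directions in the populations. It had 190 (WT) and 118 (KO) counts in HSCs, and 28 (WT) and 146 (KO) counts in CD41low/CD9low HSCs. KO was the lower library of the first pair and the higher of the second. The KO/WT ratio was 0.767 (0.604 to 0.970) in HSCs against 3.48 (2.31 to 5.41) in CD41low/CD9low HSCs, the only receptor ratio called up. Among genes whose larger count in CD41low/CD9low HSCs was at least 50 and under 200, as for Fzd1, 21.9% were up. The fitted difference over both populations was 0.66 ± 0.66 (SE, log2) with an adjusted p of 0.865 (edgeR), the SE being the largest of any receptor gene.

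The proximal promoters of Fzd1 and Fzd4, the genes with a ratio past a cutoff, are printed because the study centres on a repressor that binds the core AATC and on β-catenin, which acts through Tcf/Lef factors. The sequences are the 250 bases before the RefSeq transcription start (GRCm38.p6), 5′ to 3′ as that table gives them, a direction that was checked against annotated transcripts for Fzd4 and Fzd5 and could not be for Fzd1. Capitals mark matches on either strand to AATC or to the Tcf/Lef core CTTTGA, a match on the opposite strand being shown as its reverse complement. The searched words do not overlap in these windows. Fzd1 is on the minus strand at chr5:4758217-4758466 and Fzd4 on the plus strand at chr7:89404116-89404365.
Fzd1: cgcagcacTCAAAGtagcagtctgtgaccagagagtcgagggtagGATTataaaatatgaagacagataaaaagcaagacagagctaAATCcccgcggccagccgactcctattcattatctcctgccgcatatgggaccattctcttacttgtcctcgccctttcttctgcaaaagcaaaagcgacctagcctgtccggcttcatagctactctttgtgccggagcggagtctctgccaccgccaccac
Fzd4: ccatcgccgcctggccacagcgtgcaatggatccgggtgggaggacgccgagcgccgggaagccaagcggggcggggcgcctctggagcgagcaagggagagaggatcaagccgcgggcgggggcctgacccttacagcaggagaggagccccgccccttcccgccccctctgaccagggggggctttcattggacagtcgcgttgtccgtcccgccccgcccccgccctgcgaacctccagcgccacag

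The Fzd1 window held 2 AATC matches and 1 CTTTGA match at a GC content of 51.2%. The Fzd4 window held neither word at a GC content of 72.8%. Of 32851 mouse promoter windows of this length in the RefSeq table, 69.0% held AATC and 13.8% held CTTTGA. Fzd5 had 1 AATC match at a GC content of 76.4% and Fzd7 had 2 at 65.2%, neither with CTTTGA. The annotated GENCODE start of Fzd1, at position 4758035, lies within the RefSeq transcript, so the window depends on which start is used. Fzd2, Fzd3, Fzd6, Fzd8, Lrp5 and Lrp6 were matched to no window. These matches describe letters and say nothing about binding.

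Fzd8, a single-exon gene whose product binds canonical Wnts, also differed in direction between populations. It had 739 counts in WT HSCs and 398 in KO HSCs, and 171 in WT and 354 in KO CD41low/CD9low HSCs. The ratio was 0.665 (0.587 to 0.752) in HSCs, just short of the cutoff, and 1.38 (1.15 to 1.67) in CD41low/CD9low HSCs. With a lower cutoff of 1/1.5, Fzd8 would count as down in HSCs.

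Fzd6 (ENSMUSG00000022297, chr15:39006034-39038188, plus strand) was the mirror image, with KO the higher library of HSCs and the lower library of CD41low/CD9low HSCs. It had 1921 (WT) and 2164 (KO) counts in HSCs and 781 (WT) and 949 (KO) in CD41low/CD9low HSCs. After scaling for depth the ratio was 1.39 (1.31 to 1.48) in HSCs against 0.810 (0.736 to 0.892) in CD41low/CD9low HSCs. The exons of Fzd6 overlap the antisense gene Gm26704 over 152 bases and those of Fzd5 overlap Gm38058 over 1233 bases. The kit kept strand, but the strand setting of the counting is not given in the sources used here, so these counts are uncertain to that extent.

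Fzd7 (ENSMUSG00000041075, chr1:59482424-59486955, plus strand, 1 exon) was lower in KO in both populations without reaching the cutoff. It had 1666 (WT) and 1046 (KO) counts in HSCs and 501 (WT) and 660 (KO) in CD41low/CD9low HSCs. The ratio was 0.775 (0.717 to 0.838) in HSCs against 0.878 (0.781 to 0.988) in CD41low/CD9low HSCs, and the fitted log2 difference was -0.28 ± 0.20 (SE) with an adjusted p of 0.745 (edgeR).

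Fzd3, a polarity receptor of neurons and epithelia, and Fzd5, a β-catenin-coupled receptor, were the most even Frizzleds. Fzd3 had 689 (WT) and 710 (KO) counts in HSCs and 219 (WT) and 366 (KO) in CD41low/CD9low HSCs. Its ratio was 1.27 (1.14 to 1.41) and 1.11 (0.940 to 1.32) in HSCs and CD41low/CD9low HSCs. Fzd5 had 923 (WT) and 851 (KO) counts in HSCs and 277 (WT) and 458 (KO) in CD41low/CD9low HSCs. Its ratio was 1.14 (1.04 to 1.25) and 1.10 (0.947 to 1.28). For both genes the interval held 1 in CD41low/CD9low HSCs and lay above 1 in HSCs. After a correction for exon length, described below, the HSC ratios were nearer to 1, at 1.10 for Fzd3 and 1.06 for Fzd5.

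The coreceptors carried the most counts and had the narrowest intervals. Lrp6 (ENSMUSG00000030201, chr6:134446476-134566965, minus strand), the coreceptor with the larger role in embryonic Wnt signaling, had 11305 (WT) and 10220 (KO) counts in HSCs and 2361 (WT) and 4428 (KO) in CD41low/CD9low HSCs. KO was the higher library after scaling in both pairs, though not in HSCs after a correction for exon length, with ratios of 1.12 (1.09 to 1.15) and 1.25 (1.19 to 1.32). Lrp5 (ENSMUSG00000024913, chr19:3584828-3686564, minus strand), best known for its part in bone mass, had 3906 (WT) and 3564 (KO) counts in HSCs and 1591 (WT) and 2187 (KO) in CD41low/CD9low HSCs, with ratios of 1.13 (1.08 to 1.18) and 0.916 (0.859 to 0.978). The fitted log2 differences were 0.24 ± 0.14 (SE) for Lrp6 and 0.02 ± 0.16 for Lrp5, with edgeR adjusted p-values of 0.668 and 0.990. In HSCs, the median log2 KO/WT ratio was -0.17 among the 3865 genes with the shortest exons and 0.16 among the 3865 with the longest, which include Lrp5, Lrp6, Fzd3, Fzd4 and Fzd5, and the like values in CD41low/CD9low HSCs were -0.037 and 0.020. After a correction for exon length, chosen after seeing the data, the HSC ratio was 0.945 for Lrp6, 0.997 for Lrp5 and 1.10 for Fzd3. The direction for Lrp6 in HSCs thus turned, while Lrp5 came out level. The HSC ratio of Fzd4 was 0.411 after the same correction.

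**Figure D3:**
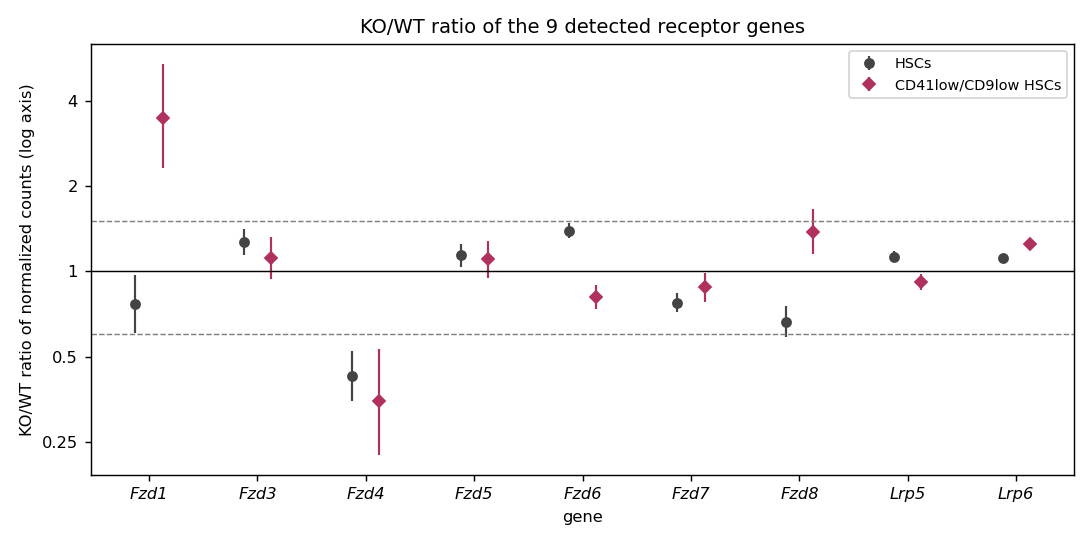
KO/WT ratio of normalized counts (log axis) with exact 95% counting intervals for the 9 detected receptor genes, in HSCs (circles) and CD41low/CD9low HSCs (diamonds), with dashed lines at 1.5 and 0.6. Fzd4 lies below the lower line in both populations, Fzd1 lies above the upper line in CD41low/CD9low HSCs only, and Fzd1, Fzd6, Fzd8 and Lrp5 lie on opposite sides of 1 in the populations, Lrp5 not so after the exon length correction.

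Counting intervals describe reads, not cell pools. Without the exon length correction, they excluded 1 for all 9 receptor genes in HSCs and for 7 of 9 in CD41low/CD9low HSCs. That correction brought the HSC ratios of Fzd3, Fzd5 and Lrp5 nearer to 1, at 1.10, 1.06 and 0.997, so the HSC count of 9 depends on leaving it out. Among all genes with at least 10 counts in 1 library, 69.3% of the intervals excluded 1 in HSCs and 61.5% in CD41low/CD9low HSCs. They excluded 1 on opposite sides in the populations for 4 of the 9 receptor genes, Fzd1, Fzd6, Fzd8 and Lrp5, where 16.1% of 14144 genes did so. With the exon length correction the Lrp5 ratio was level in HSCs, at 0.997, and 0.904 in CD41low/CD9low HSCs, which leaves 3 genes on opposite sides. Whether the genotype difference itself differs between populations could not be tested with these 4 libraries. The median log2 ratio of the 7 detected Frizzleds was -0.37 in HSCs against 0.14 in CD41low/CD9low HSCs, beside -0.0013 and 0.0017 over all genes.

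**Figure D4:**
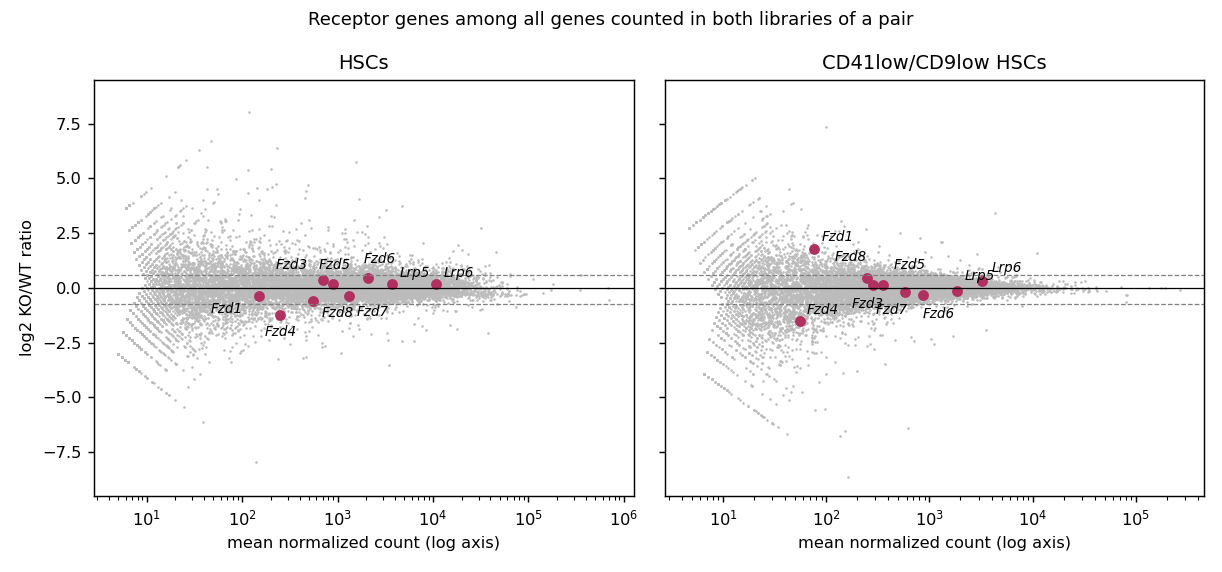
log2 KO/WT ratio against mean normalized count (log axis) for all genes with at least 10 counts in 1 library and none at 0 in the pair (grey points), with the 9 detected receptor genes in red and the cutoffs dashed. The cloud of all genes widens toward low counts, and Fzd1 and Fzd4 lie among the receptor genes with the fewest counts.

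Between populations, Lrp5 was the 1 receptor gene that passed the test. Its level per kilobase was 7.90 (WT) and 8.78 (KO) CPM per kb in HSCs and 12.8 (WT) and 11.7 (KO) CPM per kb in CD41low/CD9low HSCs, so both libraries of CD41low/CD9low HSCs were above both of HSCs. The fitted difference was 0.50 ± 0.16 (SE, log2) with an edgeR adjusted p of 0.0306, which rests largely on variance pooled over genes. Of all genes tested, 8.24% were higher and 12.6% lower in CD41low/CD9low HSCs. Without genotype as a term the adjusted p was 0.0806 and the call was lost. Within each genotype, the ratio of CD41low/CD9low HSCs to HSCs was 1.55 (1.46 to 1.65) in WT and 1.28 (1.21 to 1.35) in KO.

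Lrp6 was lower in both libraries of CD41low/CD9low HSCs relative to HSCs of the same genotype, with ratios of 0.796 (0.762 to 0.833) in WT and 0.904 (0.873 to 0.937) in KO and an edgeR adjusted p of 0.282. Fzd4 was also the lower in CD41low/CD9low HSCs, with ratios of 0.667 (0.507 to 0.867) and 0.549 (0.367 to 0.802) and an adjusted p of 0.382. Past the cutoffs in WT were Fzd1, at 0.562, on the lower side, and Fzd6, at 1.55, and Lrp5 on the upper side, where 19.7% of genes were below and 19.2% above. Past them in KO were Fzd1, at 2.58, and Fzd8, at 1.86, above, and Fzd4 below, where 19.2% of genes were above and 20.4% below. No Frizzled passed the population test, in which the 7 tested ones had adjusted p-values from 0.325 to 0.809 by edgeR.

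Ligands for these receptors were scarce in the sorted cells themselves. Of 19 Wnt genes, 9 had no count in either HSC library and 13 had none in either CD41low/CD9low HSC library. Wnt10b, which signals through β-catenin, was the ligand with the highest mean level over the 4 libraries. It had 45 counts in WT HSCs and 236 in KO HSCs, and 1 in WT and 45 in KO CD41low/CD9low HSCs, so KO was the higher library in both pairs. In WT CD41low/CD9low HSCs, Wnt5b with 9 counts and Wnt6 with 7 had more. The ratio was 6.47 (4.69 to 9.11) in HSCs. In CD41low/CD9low HSCs the log2 ratio was 4.91, with 1 WT count behind it and a counting interval of the ratio from 5.12 to 1211. Of all genes, 3.32% were up in both populations. The fitted difference was 3.36 ± 0.96 (SE, log2) with an adjusted p of 0.146 (edgeR). Wls, which carries Wnt proteins to the surface, was detected in every library at 15.8 to 17.7 CPM per kb. Wnt10b was the 1 ligand with enough counts to be tested, and Wls and Porcn, the acylating enzyme of Wnt proteins, made up the secretion list. Of the 38 tested genes in the pathway lists, DESeq2 gave no adjusted p for 12 in the genotype fit, Wnt10b among them, and for 2 in the population fit. In the ligand and secretion lists 0 genes passed for genotype or population by edgeR or DESeq2. Of these 2 lists, Wnt10b alone had an unadjusted edgeR p under 0.05, for both genotype and population.

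Of 10 other Wnt receptors, 8 were tested and 0 passed for genotype by edgeR or DESeq2, with 1, Ptk7, at an unadjusted edgeR p under 0.05, while Ptk7 and Lrp4 passed for population by both tools. Ptk7, a coreceptor with an inactive kinase domain, had 1446 (WT) and 2215 (KO) counts in HSCs and 1084 (WT) and 1677 (KO) in CD41low/CD9low HSCs. Its KO/WT ratio was 1.89 (1.77 to 2.02) in HSCs against 1.03 (0.955 to 1.11) in CD41low/CD9low HSCs, and its level rose by 1.09 ± 0.19 (SE, log2) from HSCs to CD41low/CD9low HSCs with an adjusted p of 0.000812. Ptk7 is among the genes the study names, so it is not independent evidence. Lrp4, which binds sclerostin, rose by 1.11 ± 0.29 (SE, log2) with an adjusted p of 0.0122. Fzd9, a Frizzled outside the set followed here, had 212 (WT) and 148 (KO) counts in HSCs and 36 (WT) and 13 (KO) in CD41low/CD9low HSCs, and its ratio of 0.241 (0.117 to 0.465) in the latter was the one ratio of this list called down. Fzd9 was singled out after its values were seen.

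Genes that remove, block or relay the receptors were counted in the same way. Of 10 R-spondin and receptor turnover genes, 5 were tested, and of 16 extracellular inhibitors, 3 were tested, and 0 passed for genotype or population by edgeR or DESeq2. At an unadjusted edgeR p under 0.05 there were 0 for genotype in both lists, and for population 1, Usp8, and 0. Znrf3, a ligase that removes Frizzleds from the surface, had 1146 (WT) and 1384 (KO) counts in HSCs and 329 (WT) and 529 (KO) in CD41low/CD9low HSCs, with KO/WT ratios of 1.49 (1.38 to 1.61) and 1.07 (0.932 to 1.23). Usp8, which returns Frizzleds to the surface, had ratios of 1.08 (1.04 to 1.12) and 1.14 (1.06 to 1.22). Sfrp1, a secreted decoy for Wnts, had 375 (WT) and 113 (KO) counts in HSCs and 82 (WT) and 128 (KO) in CD41low/CD9low HSCs, with ratios of 0.372 (0.299 to 0.460) and 1.04 (0.783 to 1.39), so it was lower in KO HSCs and level in CD41low/CD9low HSCs. Kremen1, which takes Lrp6 off the surface together with Dickkopf proteins, had ratios of 1.11 (1.04 to 1.19) and 0.999 (0.898 to 1.11).

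Of 11 genes of receptor folding and relay, 10 were tested. None passed for genotype by edgeR or DESeq2, with 1 at an unadjusted edgeR p under 0.05, and 3 passed for population by both tools. Dvl1, the adaptor that binds the Frizzled tail, rose by 0.84 ± 0.16 (SE, log2) from HSCs to CD41low/CD9low HSCs with an edgeR adjusted p of 0.00120. Csnk1g2, a kinase of the Lrp6 tail, rose by 0.47 ± 0.15 with an adjusted p of 0.0340. Ccny, the cyclin of another Lrp6 kinase, fell by 0.51 ± 0.15 with an adjusted p of 0.0254. Axin2, a feedback target of β-catenin, had 118 (WT) and 81 (KO) counts in HSCs and 25 (WT) and 41 (KO) in CD41low/CD9low HSCs, with KO/WT ratios of 0.847 (0.631 to 1.13) and 1.09 (0.649 to 1.88), both intervals holding 1. Of 11 feedback targets 5 were tested, and 0 passed for genotype or population by edgeR or DESeq2, with 0 at an unadjusted edgeR p under 0.05.

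Lrp5 and Lrp6 belong to the LDL receptor family, of which 10 further members were examined and 8 tested. For genotype 0 passed by edgeR or DESeq2, with 1, Lrp8, at an unadjusted edgeR p under 0.05, and for population 0 passed by either tool, with 0 at that unadjusted p. Lrp10 had 5497 (WT) and 3523 (KO) counts in HSCs and 1466 (WT) and 2581 (KO) in CD41low/CD9low HSCs. Its KO/WT ratios were 0.791 (0.758 to 0.825) and 1.17 (1.10 to 1.25), on opposite sides of 1.

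**Figure D5:**
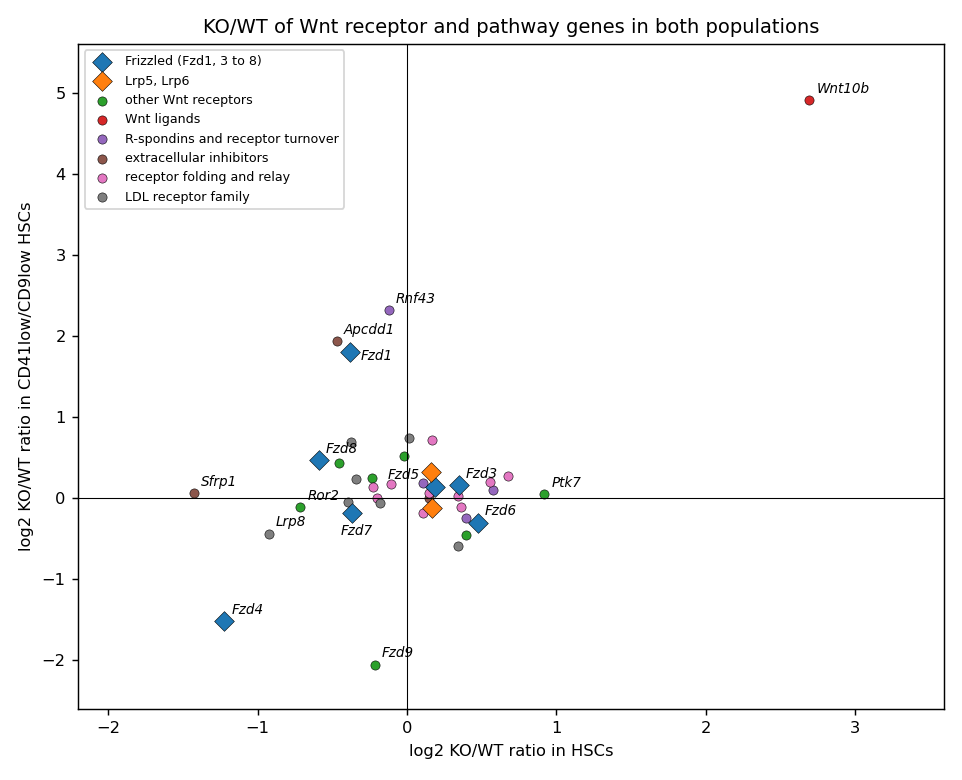
log2 KO/WT ratio in HSCs (horizontal) and in CD41low/CD9low HSCs (vertical) for receptor genes (diamonds) and genes of 6 pathway lists (circles) with ratios in both populations. The axes come from different libraries. Wnt10b lies far up in both, Fzd4 is the receptor gene farthest down in both, and most other points lie near the centre.

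The genes whose pattern over the 4 libraries was most like that of the most highly expressed receptor genes were sought among 11064 genes with at least 50 counts in every library, by the Euclidean distance between centred log2 CPM values. For Lrp6 these were Zxdc at a distance of 0.0237, Heg1 at 0.0291 and Erlin2 at 0.0398. For Fzd6 they were Alyref2 at 0.0599, Anxa1 at 0.0818 and Serpinb6b at 0.0826. With 4 points per gene, many genes lie close to any given one, and the list describes likeness of level only.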

How the data were processed

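Total RNA of sorted cells was made into stranded mRNA libraries and sequenced in pairs. Per the labels and methods, the authors aligned reads to mm10 with TopHat2 2.0.10, used SAMtools and deposited HTSeq counts per Ensembl gene, which are raw counts without normalization. The HTSeq version, strand setting and annotation release are not given in the sources used here. The 5 closing lines (unassigned reads) were left out of totals and tests. Reads assigned to no feature came to 80.0 (WT) and 105.3 (KO) per 100 gene counts in HSCs and to 62.0 (WT) and 60.1 (KO) in CD41low/CD9low HSCs. The genotypes were thus unlike in HSCs, and whether this bears on the KO/WT ratios there was not tested.

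Here, samples were grouped by their labels. Symbols and exon lengths came from GENCODE M21 (GRCm38), promoters from RefSeq (4 of the 10 genes matched). KO/WT ratios used median-of-ratios factors within a pair (KO over WT, 0.810 in HSCs and 1.50 in CD41low/CD9low HSCs) on genes with at least 10 counts in 1 library. Intervals are exact Clopper-Pearson or Poisson, cover counting error only, and reads are not independent molecules. edgeR 4.0.16 (TMM, quasi-likelihood, population and genotype) tested 14940 genes that reached 10 counts in 2 or more libraries. Its p-values use variance pooled over genes and measure only the spread among these libraries. DESeq2 1.42.0 (R 4.3.3), other scalings, filters, cutoffs and a fit without covariate were alternatives. Both procedures were tested on simulated data. For the edgeR fit, 88% of 200 genes changed 3 fold were recovered with 5 false calls. The simulated coefficient of variation between libraries was 0.2, against 0.255 in the data, and the genotype change was the same in both populations. The ratio intervals were tested on Poisson counts, which meet their own assumption. These simulations were thus more favorable than the data. Named were all 10 receptor genes, in 8 pathway lists every gene past the adjusted p or past a ratio cutoff in the same direction in both populations, otherwise the 2 of highest level (1 is not reported here), and the 3 genes most like the 2 highest receptor genes. The members and lists were chosen with earlier results of these data known.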

Additional observations from a re-analysis of the deposited data

Results flagged for a closer look

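In 4 receptor genes the KO/WT ratio lay on opposite sides of 1 in HSCs and CD41low/CD9low HSCs, each beyond its counting interval. The difference between the populations was not tested, since each rests on 1 library per genotype. With the log2 KO/WT ratio of HSCs subtracted from that of CD41low/CD9low HSCs, the difference was 2.18 for Fzd1, with a counting interval from 1.51 to 2.85. It was 1.05 for Fzd8, from 0.74 to 1.37. In the other direction it was -0.78 for Fzd6, from -0.94 to -0.62, and -0.30 for Lrp5, from -0.41 to -0.18. Of all genes compared in both populations, 16.1% had intervals on opposite sides of 1. After the exon length correction the Lrp5 ratio was 0.997 in HSCs against 0.904 in CD41low/CD9low HSCs, so Lrp5 was no longer on opposite sides, while Fzd1, Fzd6 and Fzd8 were. No group holds enough libraries to look for one that stands apart.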

How the results depend on the processing

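No paired analysis was possible because the labels carry no replicate numbers and each group has 1 library. Leaving out a library was not run, since it would leave no residual degrees of freedom. All 9 receptor ratios of each population were recomputed under 7 alternatives. Those that changed only the count filter could not move a ratio, so their agreement was fixed in advance. Of all 126 values, 123 stayed within the counting interval of the value reported. The exceptions, given in the report, came from the correction for exon length, which like the basic transcript lengths was chosen after seeing the data. Fzd4 ranged from 0.411 to 0.430 in HSCs and from 0.347 to 0.356 in CD41low/CD9low HSCs, and Fzd1 from 3.41 to 3.49 in CD41low/CD9low HSCs. Genes past either cutoff numbered 3887 in HSCs, 7003 with any gene of 1 count kept, 2223 with at least 50 counts, and 2353 with cutoffs of 2 and 0.5. In CD41low/CD9low HSCs they numbered 3786, and 1684 with at least 50 counts. Receptor genes past a cutoff in HSCs were 1, and 2 without the filter (Fzd2 with Fzd4) or with a lower cutoff of 1/1.5 (Fzd8 with Fzd4).

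The genotype fit called 126 genes, 206 with scaling by total count, 420 without the filter, and 0 without population as a term, where 154 had an unadjusted p under 0.05, and DESeq2 called 101 with the covariate. None of these called a receptor gene, and DESeq2 gave no adjusted p for Fzd1 and Fzd4. The population fit called 3107 genes and 1120 without genotype as a term, where Lrp5 was no longer called and receptor calls were 0. The genotype difference of Lrp5 turned to -0.0019 without the covariate, from 0.02. The other 88 of 90 fitted receptor values kept their direction. They also kept their side of the threshold, except that the DESeq2 genotype values of Fzd1 and Fzd4 had no adjusted p to compare. The cause of these changes was not tested. Fzd2 had at most 5 counts in any library, and the intervals of Fzd1 and Fzd4 were wider in CD41low/CD9low HSCs, whose libraries had lower totals.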
